A study of Mus musculus with 3 samples.

Results

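The genes described here are 48 cell cycle genes, followed from DNA replication to mitosis in tumour-associated macrophages. They were taken from a given list, drawn up with earlier results of these data known, and all 48 were found among the 31053 genes of the count matrices. In the list, 18 genes act in DNA replication, 20 in mitosis and 6 at the G1 phase and its exit, and the other 4 encode histones or the microtubule protein stathmin. Cells came from mammary adenocarcinomas of 3 FVB/N-Tg(MMTVPyVT)634Mul/J mice, in which the polyoma virus middle T oncogene is expressed from the MMTV promoter in mammary epithelium. Each tumour had reached 750 mm3. Cells positive for CD45, CD11b and F4/80 and negative for Ly6G were sorted and profiled by droplet single-cell RNA sequencing. The 3 libraries, 1 per mouse, formed a single group without a treatment, so comparisons were made between cells within the mice.

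Before a cell divides, cyclin D with its kinases and then cyclin E inactivate the RB proteins, E2F transcription factors are released, and genes for the replication machinery and for nucleotide supply are transcribed. The DREAM complex represses the genes for chromosome condensation, the spindle and cytokinesis in resting and early cells, after replication MYBL2 and FOXM1 with the MuvB core activate them, and inhibitors such as p21 and p27 hold the kinases back. Tissue macrophages are known to be able to divide locally as well as to be replaced from blood monocytes.

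Cells with at least 500 detected genes and at most 15% mitochondrial UMIs (unique molecular identifiers, each counting 1 captured transcript end) were kept, which left 663, 2108 and 6978 cells in mice 1, 2 and 3. Their median depths were 15014, 13600 and 9318.5 UMIs per cell. In the 3 libraries 8 barcodes occurred more than once. A low-UMI cluster of 426 cells, with a median of 2042.5 UMIs and milk and keratin genes leading, was left out of the tests. It stayed in the levels, dividing shares, correlations, centres and quintiles, which were taken over all clusters. Macrophage identity was checked in the other clusters: Csf1r, the receptor for the macrophage growth factor CSF1, had a UMI in 97.8% ± 0.649 of the cells that were not dividing (mean ± SD, n = 3 mice), while Ly6g was at 0. In the low-UMI cluster the macrophage gene C1qa had a UMI in 93.0% ± 0.610 of cells and Csf1r in 58.6% ± 1.86. The epithelial genes Krt8 and Epcam had one there in 11.1% ± 0.709 and 8.78% ± 4.28 of cells.

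The 48 genes together made up 0.137% of the UMIs in mouse 1, 0.195% in mouse 2 and 0.182% in mouse 3. The replication genes summed to 345, 457 and 489 CPM (UMIs of the genes per 1000000 UMIs) in mice 1, 2 and 3. The mitosis genes summed to 332, 581 and 578 CPM. Mouse 1 was the lowest of the 3 for both groups. Fewer cells expressing a gene and less RNA per cell cannot be told apart in these sums.

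Among the replication genes, those of the MCM2-7 helicase, which unwinds DNA at the fork, were detected across the whole population. Mcm3 stood at 30.4, 45.4 and 45.4 CPM in mice 1, 2 and 3 and had a UMI in 30.01% ± 5.35 of cells. Pcna, the sliding clamp of the DNA polymerases, stood at 55.1, 58.0 and 64.0 CPM and had a UMI in 43.9% ± 3.81 of cells. Mouse 1 was the lowest for both, by more for Mcm3 than for Pcna. Rrm2, the cell cycle-controlled subunit of ribonucleotide reductase, stood at 8.88, 14.0 and 14.6 CPM with a UMI in 6.42% ± 2.36 of cells. The other replication genes had means between 2.69 CPM, for the origin licensing factor Cdc6, and 43.6 CPM, for the PCNA-associated factor Pclaf.

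Mitosis genes varied more between mice. Mki67, which encodes the Ki-67 protein coating mitotic chromosomes, stood at 58.4, 150 and 81.6 CPM in mice 1, 2 and 3. Top2a, the topoisomerase that untangles sister chromatids, stood at 36.7, 88.4 and 87.2 CPM. Mouse 2 was highest for Mki67, while mice 2 and 3 were alike for Top2a. Plk1, the kinase of mitotic entry, had the lowest mean of the group at 4.29 CPM ± 0.80.

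The G1 regulators spanned the widest range. Cdkn1a, which encodes the kinase inhibitor p21, stood at 424, 496 and 414 CPM and had a UMI in 78.6% ± 2.01 of cells, more than any other of the 48 genes. Ccnd1 and Ccnd2, the D-type cyclins, had means of 58.9 CPM ± 8.11 and 59.0 CPM ± 22.7. Ccne1 and Ccne2, the E-type cyclins of replication onset, had means of 2.91 CPM ± 0.734 and 2.62 CPM ± 0.853. Cdkn1b, which encodes p27, had a mean of 43.3 CPM ± 8.62.

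Of the remaining 4 genes, Hist1h1b and Hist1h2ap had their extremes in different mice. Hist1h1b, a linker histone, stood at 14.2, 99.2 and 44.5 CPM, and Hist1h2ap, a core histone, at 11.5, 6.63 and 32.7 CPM. Mouse 2 was therefore the highest for Hist1h1b and the lowest for Hist1h2ap. Counts of Hist1h2ap are uncertain because histone genes have near-identical copies that share reads. Stmn1, which encodes the microtubule-destabilising protein stathmin, and H2afx, a histone variant of DNA repair, had means of 73.8 CPM ± 8.74 and 30.1 CPM ± 5.98.

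**Figure D1:**
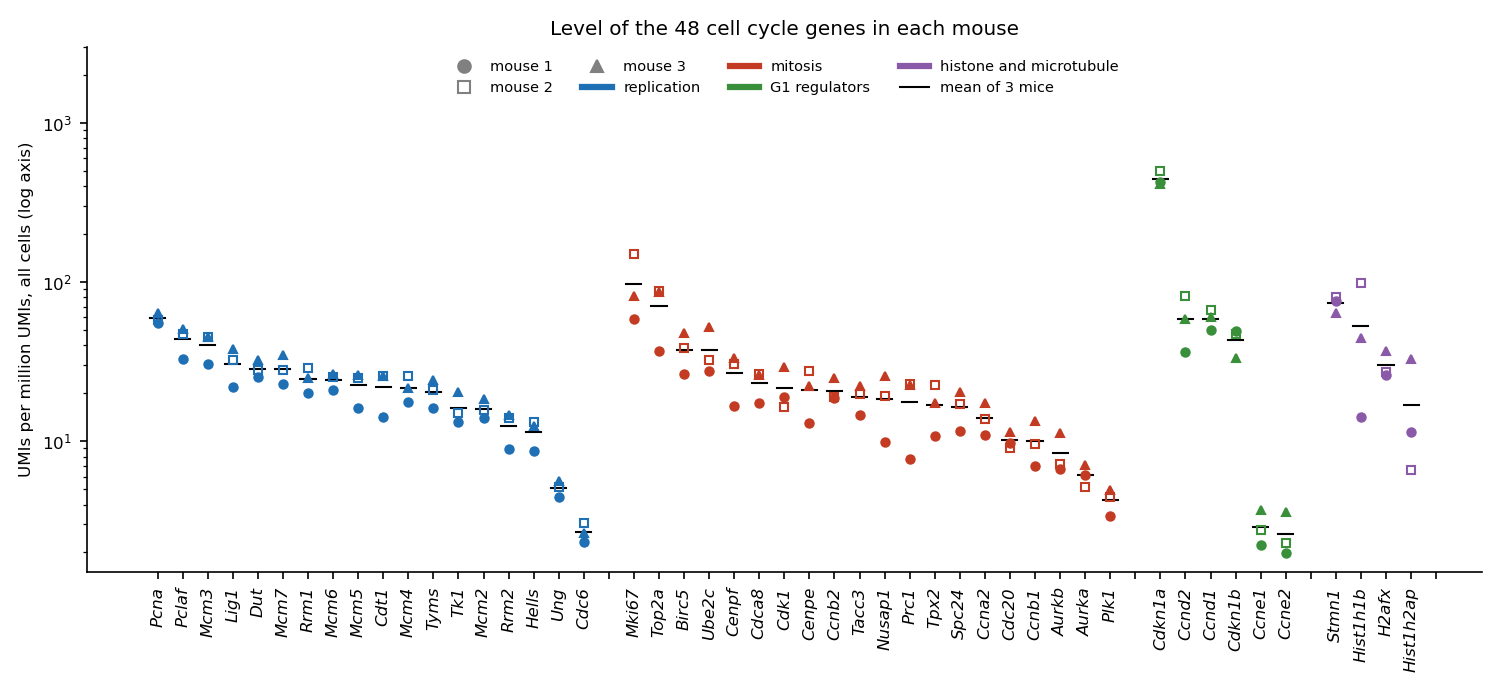
Level of each of the 48 genes in CPM over all kept cells, on a log axis, with 1 symbol per mouse, a black line at the mean of the 3 mice and colours for the 4 groups of genes. Cdkn1a lies far above the others at a mean of 445 CPM, and Hist1h1b and Hist1h2ap spread most between mice.

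Promoters of replication and mitosis genes carried different short motifs. A RefSeq table of promoters on build GRCm38.p6, from 250 bases before to 50 bases after each start, held 36 of the 48 genes. E2F-type letters (any of TTGGCGC and TTCCCGC and also TTCGCGC and TTGCCGC, either strand) occurred in promoters of 11 of 17 replication genes (64.7%) and of 4 of 16 mitosis genes (25.0%), against 10.9% of the 27025 genes in the table. Letters of the cell cycle genes homology region, abbreviated CHR (TTTGAA or TTCGAA, either strand), occurred for 2 of 17 replication genes (11.8%) and 11 of 16 mitosis genes (68.8%), against 21.7% of all. All 11 of those mitosis genes also held the letters CCAAT on either strand, a pair of motifs found together in 9.65% of all promoters. None of the 3 G1 regulators in the table held either E2F-type or CHR-type letters. Such matches are descriptions of the letters in the window and not evidence of binding.

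The stretches from 190 bases to 1 base before the start are shown for 2 replication genes and 3 mitosis genes, with matches to the E2F-type, CHR-type and CCAAT letters in capitals. Hells, a chromatin remodeller of replicating cells, and Mcm6 stand for the replication side, Cdc20, the activator of the anaphase-promoting complex, and Ccnb2, a B-type cyclin, for the mitosis side, and Cdk1, the kinase of mitotic entry, holds letters of both kinds. They lie at chr1:128359706-128359895 (Mcm6, minus strand), chr19:38930800-38930989 (Hells, plus strand), chr10:69352913-69353102 (Cdk1, minus strand), chr9:70421555-70421744 (Ccnb2, minus strand) and chr4:118437344-118437533 (Cdc20, minus strand).
Mcm6: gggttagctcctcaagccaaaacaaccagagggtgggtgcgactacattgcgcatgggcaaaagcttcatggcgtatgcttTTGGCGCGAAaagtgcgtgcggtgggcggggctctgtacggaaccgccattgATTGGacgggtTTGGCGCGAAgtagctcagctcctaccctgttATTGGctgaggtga
Hells: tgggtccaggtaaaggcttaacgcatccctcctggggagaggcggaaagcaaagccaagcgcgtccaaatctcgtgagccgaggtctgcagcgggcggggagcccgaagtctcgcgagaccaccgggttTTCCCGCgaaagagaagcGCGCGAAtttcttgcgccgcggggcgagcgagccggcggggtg
Cdk1: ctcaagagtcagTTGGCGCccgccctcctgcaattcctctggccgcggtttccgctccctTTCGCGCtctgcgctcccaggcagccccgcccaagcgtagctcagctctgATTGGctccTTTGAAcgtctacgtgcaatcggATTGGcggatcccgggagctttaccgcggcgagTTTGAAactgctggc
Ccnb2: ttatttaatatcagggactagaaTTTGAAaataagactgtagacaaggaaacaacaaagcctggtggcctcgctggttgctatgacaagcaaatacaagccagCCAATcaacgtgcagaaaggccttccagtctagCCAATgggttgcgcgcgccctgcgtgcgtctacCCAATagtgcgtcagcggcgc
Cdc20: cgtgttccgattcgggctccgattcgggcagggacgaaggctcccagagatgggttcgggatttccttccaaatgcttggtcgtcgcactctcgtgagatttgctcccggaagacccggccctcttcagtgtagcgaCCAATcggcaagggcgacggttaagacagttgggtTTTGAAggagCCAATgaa

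Cells were then sorted by the summed replication genes and the summed mitosis genes, as UMIs per 10000 UMIs of the cell. A cell was counted as dividing when either sum lay above the median plus 3 scaled median absolute deviations over all cells on the log2(value + 1) scale, which came to 31.9 per 10000 for replication and 8.88 per 10000 for mitosis, and held at least 3 UMIs. By this rule 41 of 663 cells were dividing in mouse 1 (6.18%, exact 95% binomial interval 4.47 to 8.30%), 225 of 2108 in mouse 2 (10.7%, 9.39 to 12.1%) and 738 of 6978 in mouse 3 (10.6%, 9.86 to 11.3%). The mean was 9.14% ± 2.56, and mouse 1 lay below the intervals of the other two. Intervals cover counting error only. The low-UMI cluster is part of these counts, with 7, 16 and 27 of the dividing cells in mice 1, 2 and 3.

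Most dividing cells were above the mitosis threshold. Over the 3 mice, 856 cells passed the mitosis threshold only, 120 passed both and 28 passed the replication threshold only, of which 3, 5 and 20 were in mice 1, 2 and 3. Cells high for mitosis made up 95.9% ± 2.81 of the dividing cells, and cells high for replication 15.5% ± 3.98. This split follows the thresholds. Only 21.6% of all cells lacked a replication UMI against 46.5% that lacked a mitosis UMI, so the replication threshold was set higher. With 2 in place of 3 scaled deviations, 13.6 and 4.30 per 10000, the dividing share was 10.1, 17.8 and 15.9% in mice 1, 2 and 3, and 13, 54 and 153 cells passed for replication only. Near the thresholds the classes are not separate: 300 cells lay within 0.5 on the log2 scale of the replication threshold and 380 of the mitosis threshold. Of the 300, 122 lay above the replication threshold, which 148 cells passed in all, so most cells counted as high for replication lay close to it.

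**Figure D2:**
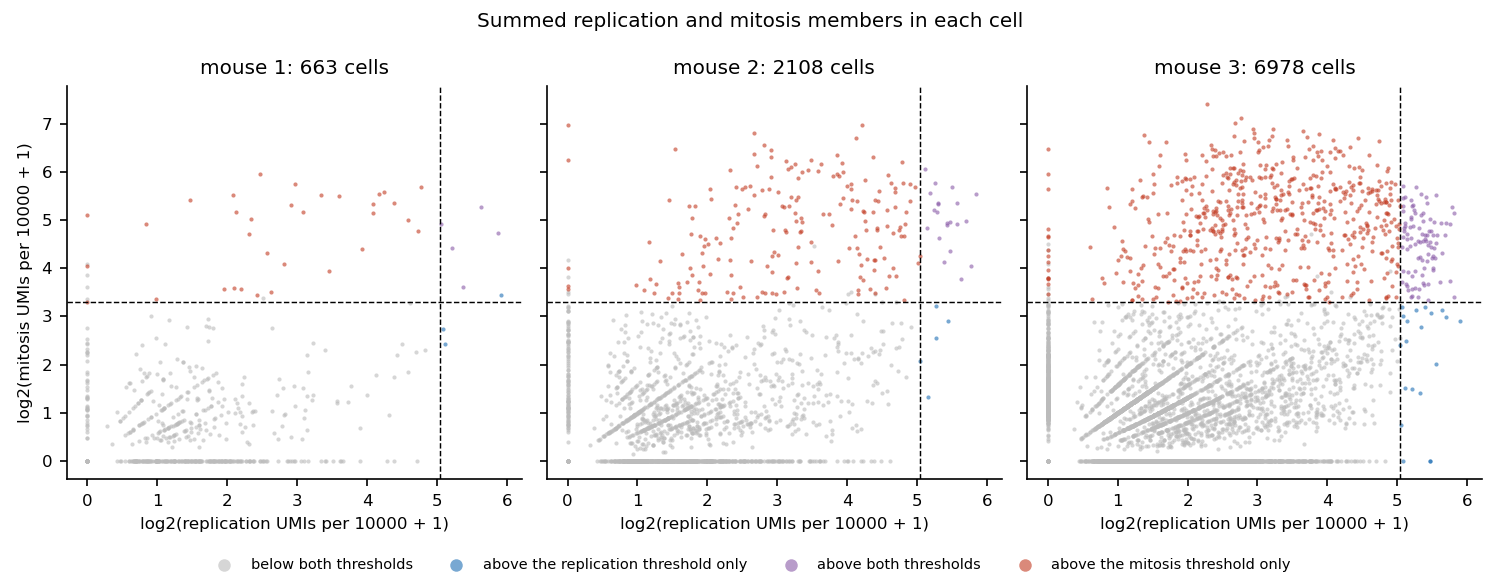
Each point is a cell, with log2(replication UMIs per 10000 + 1) on the horizontal and log2(mitosis UMIs per 10000 + 1) on the vertical axis, 1 panel per mouse, and dashed lines at the thresholds. Of the cells above a threshold, 856 lie above the mitosis threshold only, 120 above both and 28 above the replication threshold only.

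Depth and doublet scores moved with the classes. Dividing cells had medians of 20474, 22343 and 14044 UMIs in mice 1, 2 and 3, against 14957, 13067 and 8945 in other cells. Cells among the highest doublet scores made up 0, 4 and 13.8% of the dividing cells and 0.643, 1.43 and 4.62% of the others. After thinning each cell to 5000 UMIs, which left out 104, 275 and 843 cells in mice 1, 2 and 3, the dividing share was 12.8% ± 3.17. Without the cells of highest doublet score it was 9.58%. For both of these shares the thresholds were set anew by the same rule on the cells and counts used.

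Genes differed in how far their UMIs were concentrated in the dividing cells. These shares are a description, since the replication and mitosis genes chose the cells. Nusap1 and Ube2c, a spindle protein and a ubiquitin-conjugating enzyme of mitotic exit, had 94.1% and 91.8% of their UMIs there, and Plk1 92.1%. Pclaf and Rrm2 were the replication genes with the highest shares, at 81.5% and 81.0%, while the 6 Mcm genes had 23.8 to 38.4% and Pcna 26.0%. Most Mcm and Pcna transcripts were therefore counted in cells below both thresholds.

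Of the 10 genes that had no part in choosing the cells, Hist1h1b and Hist1h2ap were the most concentrated, with 93.4% and 89.2% of their UMIs in dividing cells. Ccne2 followed with 71.8%, then H2afx with 65.4%, Stmn1 with 65.0% and Ccne1 with 55.2%. Hist1h1b stood at 132, 594 and 269 CPM in dividing cells of mice 1, 2 and 3 and at 2.75, 5.52 and 4.29 CPM in the others, with no overlap. D-type cyclins and inhibitors showed no such concentration: Ccnd1 had 17.0%, Ccnd2 15.9%, Cdkn1b 16.3% and Cdkn1a 12.96% of their UMIs in dividing cells.

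Cdkn1a was lower in dividing cells of every mouse. It stood at 282, 430 and 366 CPM in the dividing cells of mice 1, 2 and 3, against 438, 509 and 423 CPM in the others. Within the same mouse the dividing cells were thus the lower, while the ranges over mice overlapped. By macrophage cluster, dividing cells were lower for Cdkn1a in 3 of 3 mice in clusters 4 and 5, in 2 of 3 in clusters 1 and 2 and in 1 of 3 in cluster 3. These differences were not tested.

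Within the dividing cells, genes of the same group were more correlated than genes of different groups. In the dividing cells of mice 1, 2 and 3 the mean correlation across cells between pairs of replication genes was 0.39, 0.38 and 0.35, and between pairs of mitosis genes 0.24, 0.32 and 0.32. Between a replication and a mitosis gene it was 0.0016, -0.0025 and -0.070. Over all cells the same pairs between groups had means of 0.18, 0.21 and 0.18. Cells of a mouse share their library, and cells chosen by either sum have these sums tied to each other, so the values are descriptions.

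Each gene was then placed along the dividing cells. Cells of a mouse were ranked by the log2 ratio of the mitosis sum to the replication sum, leaving the gene itself out, and the centre of a gene is its level-weighted mean rank, from 0 on the replication side to 1 on the mitosis side. The ranking is built from the replication and mitosis genes, so that these 2 groups separate is part of the method and is not a finding. The order within each group, its repeat in 3 mice and the places of the 10 other genes are not fixed by it. The dividing cells held 41, 225 and 738 cells, so centres of mouse 1 rest on the fewest.

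On the replication side the earliest centre was that of Ung, the uracil-DNA glycosylase of base excision repair, at 0.07, 0.13 and 0.10 in mice 1, 2 and 3. The E-type cyclins came next although they had no part in the ranking, Ccne2 at 0.14 ± 0.03 and Ccne1 at 0.15 ± 0.04, with Cdc6 at 0.16 ± 0.09. These places depend on the threshold: with 2 scaled deviations Ung was still first at 0.16 ± 0.04, but Ccne2 lay at 0.26 ± 0.02 and Ccne1 at 0.28 ± 0.01, among the helicase genes and behind Hells and Mcm6, both at 0.25. The genes of the helicase and of the fork followed between 0.20 and 0.28: Hells, Mcm6, Lig1 (the ligase of Okazaki fragments), Mcm7, Mcm4, Mcm2, Mcm3 and Mcm5, then Rrm2 and the dUTPase gene Dut, both at 0.28 with Pcna. Genes of thymidine supply were later, with Tyms, thymidylate synthase, at 0.32 ± 0.04 and Tk1, thymidine kinase, at 0.34 ± 0.01. Rrm1, Pclaf and the licensing factor Cdt1 closed the group between 0.37 and 0.40. Of the 47 gaps between neighbours in the order of all 48 genes, 45 were smaller than the larger of the 2 SDs. Centres moved by more than 1 SD over mice for 33 of the 48 genes at 2 scaled deviations, for 12 at 4 and for 15 after thinning.

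The histone genes lay between the replication and mitosis sides. Hist1h1b had its centre at 0.36 ± 0.05 and Hist1h2ap at 0.42 ± 0.06. The ranked dividing cells of each mouse were also divided into quintiles 1 to 5, from the replication to the mitosis side. Hist1h1b was highest in quintile 1 of mouse 1 (304 CPM) and in quintile 2 of mice 2 and 3 (969 and 470 CPM), and it stood at 32.9, 258 and 84.2 CPM in quintile 5. It was thus lower at the mitosis end in each mouse, a description with no test. H2afx lay later than both histone genes, at 0.54 ± 0.03, and stood at 99.2, 76.2 and 96.8 CPM in quintile 1 against 270, 183 and 226 CPM in quintile 5.

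On the mitosis side Cdk1 (0.46 ± 0.10), the Aurora kinase gene Aurkb (0.48 ± 0.08), Top2a (0.49 ± 0.07) and the kinetochore gene Spc24 (0.49 ± 0.03) were earliest. Nusap1, the cytokinesis gene Prc1, Mki67 and the A-type cyclin Ccna2 followed between 0.51 and 0.54. Birc5 (survivin), the spindle assembly factor Tpx2, Cdca8 (borealin) and Tacc3, which stabilises spindle microtubules, lay between 0.57 and 0.59, with the kinase gene Aurka. The B-type cyclins lay at 0.61 ± 0.03 for Ccnb1 and 0.65 ± 0.04 for Ccnb2. The kinetochore genes Cenpe and Cenpf, with Ccnb2, Plk1, Cdc20 and Ube2c, had the last centres, from 0.65 to 0.71. They were also the last 6 at 2 scaled deviations, from 0.71 to 0.77. Ccna2 was lower in rank than both B-type cyclins in each of the 3 mice.

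Values by quintile show how steep these courses were. Ccne2 stood at 105, 43.6 and 66.1 CPM in quintile 1 of mice 1, 2 and 3 and at 0, 1.76 and 0.901 CPM in quintile 5. At 2 scaled deviations the mean of the 3 mice was highest in quintile 2 for both E-type cyclins, at 30.7 CPM against 23.4 in quintile 1 for Ccne2 and at 32.7 against 16.7 for Ccne1. Ube2c stood at 12.4, 26.8 and 30.6 CPM in quintile 1 and at 656, 503 and 805 CPM in quintile 5. The values of the 3 mice in these quintiles did not overlap for either gene. Ube2c belongs to the mitosis group that made the ranking, so the direction of its difference largely follows from the method. Spc24 was nearly level, at 105, 75.0 and 95.1 CPM in quintile 1 and 105, 85.5 and 98.4 CPM in quintile 5. Mcm6, one of the replication genes with E2F-type letters in its printed promoter, stood at 279, 170 and 180 CPM in quintile 1. In quintile 5 it stood at 6.58, 4.50 and 10.2 CPM, a direction that likewise largely follows from the ranking.

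**Figure D3:**
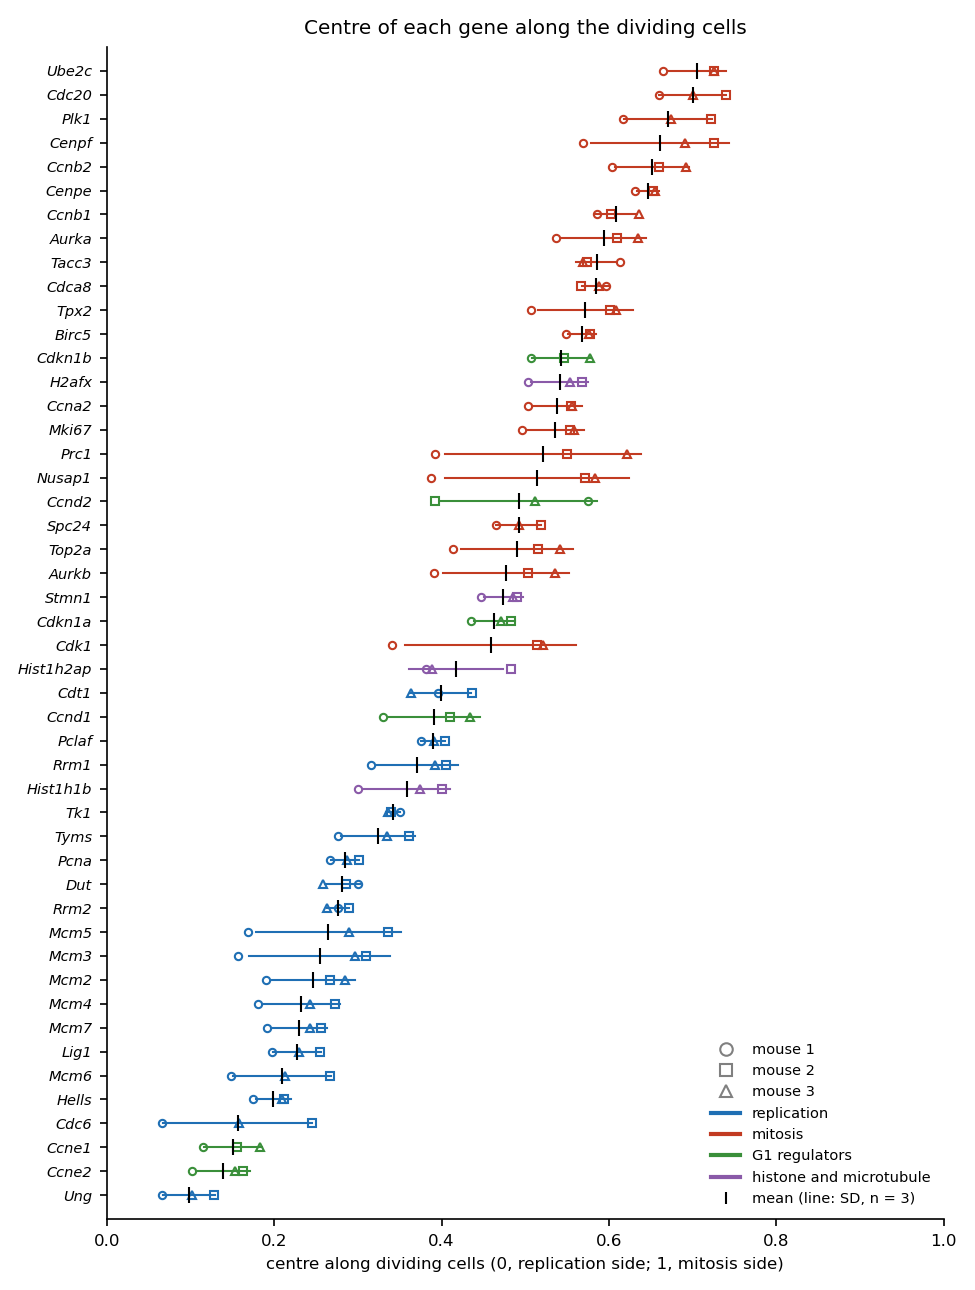
Centre of each of the 48 genes along the dividing cells, from 0 on the replication side to 1 on the mitosis side, with 1 open symbol per mouse, a tick at the mean and a line of 1 SD (n = 3 mice) on each side. Ung, Ccne2, Ccne1 and Cdc6 lie lowest, at 0.10 to 0.16, and Plk1, Cdc20 and Ube2c highest, at 0.67 to 0.71.

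**Figure D4:**
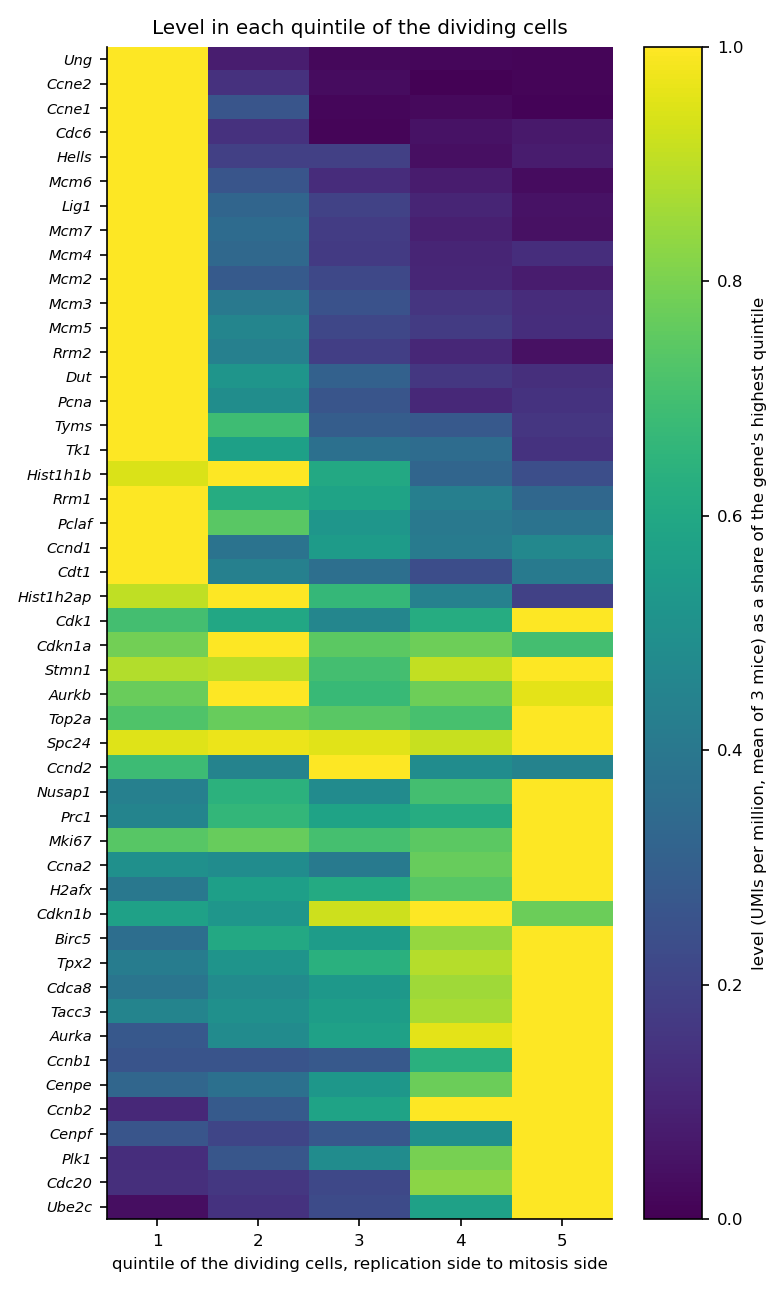
Level of each gene in the 5 quintiles of the ranked dividing cells (mean of 3 mice, CPM), as a share of the gene's highest quintile, with genes in the order of their centres. Ung and the E-type cyclins are highest in quintile 1, Hist1h1b peaks in quintile 2, and Ube2c is highest in quintile 5, with 655 CPM. With 2 scaled deviations the E-type cyclins are highest in quintile 2.

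Of the D-type cyclins and inhibitors, Ccnd1 lay toward the replication side. It stood at 149, 138 and 100.1 CPM in quintile 1 of mice 1, 2 and 3, its highest in each, and at 46.1, 73.8 and 60.3 CPM in quintile 5, without overlap, and at 2 scaled deviations quintile 1 was again the highest in each mouse. Its centre was at 0.39 ± 0.06. The others had centres nearer the middle, Ccnd2 at 0.49 ± 0.09, Cdkn1a at 0.46 ± 0.03 and Cdkn1b at 0.54 ± 0.04. Ccnd2 ran from 0.39 in mouse 2 to 0.58 in mouse 1. Lists of related genes outside the 48 were placed by the same ranking: 46 of 49 other replication genes with a value had a median centre of 0.32, and 101 of 103 other G2 and mitosis genes one of 0.53. E2f1, the activating E2F, lay at 0.22 ± 0.12, beside the helicase genes, while Nek2, a centrosome kinase, had the latest centre of all at 0.73 ± 0.06.

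To see which genes outside the 48 differed between the ends of the cycle, cells above the mitosis threshold only were compared with cells above the replication threshold only, by edgeR on UMI sums per mouse. In the macrophage clusters the second kind numbered 2, 4 and 17 cells in mice 1, 2 and 3. Of 5363 genes tested, 131 were higher in mitosis cells (2.44%) and 102 lower (1.9%) at a Benjamini-Hochberg adjusted p below 0.05. Of the replication list 27 of 35 tested genes were lower (median log2 fold change -1.75) and 0 higher. Of the G2 and mitosis list 22 of 73 were higher and 2 lower (median 0.98), beside a median of 0.04 over all genes. The cells were chosen by sums of replication and mitosis genes, so the directions of these lists largely follow from that choice.

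E2f1 was lower in mitosis cells by the largest amount in these lists, at 11.8, 21.1 and 17.0 CPM in mice 1, 2 and 3 against 123, 59.9 and 168 CPM in replication cells (log2 fold change -2.82 ± 0.43 SE, edgeR adjusted p = 9.65e-06). Cenpa, the centromeric histone, was higher, at 265, 185 and 313 CPM against 0, 29.9 and 22.4 CPM (log2 fold change 3.76 ± 0.47 SE, edgeR adjusted p = 6.18e-08). Its values in the replication cells rest on 6 UMIs over the 3 mice. Mybl2, although an activator of mitosis genes, was lower (log2 fold change -2.46 ± 0.46 SE, edgeR adjusted p = 0.00134). With equal cell numbers in each mouse and cluster only 1560 genes could be tested, of which 0 passed at an adjusted p below 0.05 by edgeR and 150 were below 0.05 unadjusted. With the threshold at 2 scaled deviations 7950 genes were tested, of which 243 were higher (3.06%) and 239 lower (3.01%).

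Dividing cells of the macrophage clusters were compared with the other cells of the same mice for genes outside the 48. Of 11218 genes tested by edgeR, 1845 were higher in dividing cells (16.4%) and 1681 lower (15%). Nearly all other cell cycle genes were higher, 47 of 49 in the replication list (median log2 fold change 1.69), 101 of 103 in the G2 and mitosis list (3.55) and 25 of 29 other histone genes (3.06), beside a median of -0.02 over all genes. Cells were chosen by replication and mitosis genes, so higher values of other cell cycle genes largely follow from that choice and are not separate support. Of the genes that control E2F and RB, 12 of 21 were higher and 0 lower. These included the kinase inhibitors Cdkn2c (log2 fold change 3.16 ± 0.16 SE) and Cdkn2d (1.83 ± 0.09 SE), and the kinase Cdk4, at 171, 140 and 151 CPM in dividing cells against 88.8, 78.2 and 95.9 CPM (0.67 ± 0.07 SE, edgeR adjusted p = 9.72e-06).

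Macrophage genes were lower in dividing cells but present. Of the macrophage lineage list 14 of 20 genes were lower and 0 higher (median log2 fold change -0.31). Adgre1, which encodes F4/80, stood at 254, 219 and 244 CPM in dividing cells of mice 1, 2 and 3 against 347, 283 and 297 CPM (-0.48 ± 0.07 SE, edgeR adjusted p = 0.000187), and had a UMI in 88.5% ± 2.75 of dividing cells and 89.1% ± 2.82 of the others. Of the macrophage growth control list 18 of 25 genes were lower and 1 higher. Btg1, an antiproliferative gene, was lower (log2 fold change -0.57 ± 0.05 SE, edgeR adjusted p = 7.39e-06), and so was the growth factor gene Igf1 (-0.82 ± 0.11 SE, edgeR adjusted p = 0.000122). Of the MHC class II list 5 of 10 were lower and 0 higher, and of the oxidative phosphorylation list 13 of 24 were higher and 0 lower. Summed markers of most other cell types overlapped between the 2 classes. The tumour epithelium list of 12 genes stood at 11.9 to 66.7 CPM in dividing and 27.6 to 77.0 CPM in other cells. The T cell list of 12 genes stood at 79.0 to 223 and 104 to 215 CPM. The NK cell list of 8 genes stood at 0 to 24.9 CPM, with Ncr1, Gzma and Eomes at 0, and 0.794 to 1.30 CPM. Without overlap, the neutrophil list (19.5 to 21.4 against 29.9 to 34.5 CPM) and the erythroid list (1.08 to 2.25 against 4.11 to 80.9 CPM) were lower in dividing cells. Epcam had a UMI in 5.88, 6.22 and 7.74% of dividing cells of mice 1, 2 and 3, against 3.08, 4.76 and 4.83% of the others. Krt8 overlapped, at 0 to 5.74% against 2.23 to 4.25%. The part of other cell types in the result was not tested. Without mouse 2 or mouse 3 the edgeR test passed 1297 and 1253 genes in all.

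Macrophage states were taken from clusters made without the 48 genes, the cell cycle lists and 322 genes correlated with the summed members. Outside the low-UMI cluster, 7 clusters were obtained. Cluster 1 (1971 cells, led by Cd207, Il12b and Ccl22) was inflammatory-like by 8 of 12 markers, of which 0 were among its 10 leading genes. Cluster 2 (1948 cells) was lipid-associated-like by 6 of 12 markers, 4 of them leading. In cluster 2, 6 of 12 hypoxia markers were also higher, 2 of them leading. Cluster 3 (1730 cells) was stress and immediate-early-like and clusters 4 and 5 (1470 and 1351 cells) were LYVE-1 resident-like. Cluster 6 (463 cells, with Retnla, Lyz1 and Ear2 among its leading genes) was monocyte-like by 7 of 12 markers, 1 of them leading. Cluster 8 (390 cells) was interferon-like. Clusters 6 and 8 had 8 and 9 cells in mouse 1 and were not part of the tests between clusters.

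Dividing cells were found in all 7 of these clusters. In cluster 1 they made up 6.25, 9.85 and 13.8% of cells in mice 1, 2 and 3, in cluster 2 7.14, 11.2 and 7.25%, and in cluster 3 6.37, 8.14 and 9.92%. Of the LYVE-1 resident-like clusters, cluster 4 had 2.04, 7.34 and 7.23% and cluster 5 7.25, 14.9 and 13.5%. Cluster 4 was the lowest of the 5 tested clusters in every mouse, though in mouse 3 it was level with cluster 2. Cluster 5 had a median depth of 23785 UMIs against 8357.5 in cluster 4. After thinning to 5000 UMIs, with thresholds set anew, the shares were 17.1% ± 3.49 in cluster 5 and 7.01% ± 4.15 in cluster 4. The monocyte-like cluster had 0 of 8 cells, 15.3% and 12.8%, and the interferon-like cluster 11.1, 8.06 and 16.0%. The monocyte-like cluster had a median depth of 29531 UMIs, and after thinning its shares were 0, 18.9 and 17.4%. With the highest doublet scores removed, the cluster left to match it shared 0 cells with it. The shares of dividing cells depend on the clustering. The cluster that shared most cells with cluster 2 had 15.4, 24.1 and 13.4% at Leiden resolution 1.0 and 10.7, 18.0 and 14.6% when the correlated genes were allowed into clustering. By their markers these matches were hypoxia-like and stress and immediate-early-like, not lipid-associated-like. Cells shared with cluster 2 were a fraction of 0.36 and 0.30 of all cells in either cluster. The match of cluster 4 had 2.56, 6.57 and 9.13% and 1.31, 5.04 and 3.57%. Only the matches of clusters 1 to 5 were compared here. Among them, at resolution 1.0, it was not the lowest in mouse 3, where the match of cluster 3 had 8.12%. With the highest doublet scores removed the match of cluster 4 was not the lowest in mouse 2, at 8.39% against 8.26% in the match of cluster 3. At resolution 1.0 a cluster of 1147 cells without a match was lower in every mouse, at 2.08, 3.14 and 3.54%. So was a LYVE-1 resident-like cluster of 515 cells without a match, at 0, 5.83 and 5.48%. With the correlated genes in clustering, a LYVE-1 resident-like cluster of 83 cells without a match had 0 dividing cells.

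The 48 genes were then tested between the 5 clusters with at least 20 cells in every mouse, on UMI sums per mouse and cluster. By edgeR, 21 of 48 differed among the 5 clusters, against 59.1% of the 9286 genes tested. They were 8 replication genes (Mcm3, Mcm7, Pcna, Dut, Ung, Tyms, Rrm1 and Cdt1), 7 mitosis genes (Top2a, Mki67, Cdca8, Aurkb, Plk1, Spc24 and Tacc3), 4 G1 regulators (Ccne1, Ccnd2, Cdkn1a and Cdkn1b) and the histones Hist1h1b and H2afx. Without mouse 2 the count was 8 and without mouse 3 it was 10, and it was 35 without mouse 1.

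In cluster 1, 25 of 48 genes were higher than in the mean of the other 4 clusters and 0 lower, where 18.5% of all genes were higher and 15.7% lower. The median log2 fold change of the 48 was 0.58, beside 0.00 over all genes. Higher were 12 of 18 replication genes (Mcm2, Mcm3, Mcm5, Mcm6, Mcm7, Pcna, Dut, Tyms, Rrm1, Rrm2, Pclaf and Cdt1), 8 of 20 mitosis genes (Top2a, Mki67, Cenpe, Prc1, Cdca8, Aurkb, Spc24 and Tacc3), Ccnd2, Cdkn1a, Hist1h1b, Hist1h2ap and H2afx. Mki67 stood at 84.6, 236 and 134 CPM in cluster 1 of mice 1, 2 and 3 (log2 fold change 1.00 ± 0.15 SE, edgeR adjusted p = 0.000505). In the other 4 clusters its highest values were 76.7, 162 and 76.6 CPM, below cluster 1 in each mouse. Tyms stood at 25.5, 32.4 and 38.8 CPM (1.04 ± 0.21 SE, edgeR adjusted p = 0.00351) and Dut at 37.2, 36.5 and 46.4 CPM (0.81 ± 0.15 SE, edgeR adjusted p = 0.000923).

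How many of the 48 passed in cluster 1 depended on the mice and on the clustering. Without mouse 2 or without mouse 3 10 passed, and without mouse 1 34 passed. With the highest doublet scores removed 12 were higher and 1 lower. When the correlated genes were allowed into clustering, 4 were higher and 3 lower in the matching cluster, and the cells regrouped so that 34 were higher in the match of cluster 2 and 29 higher in that of cluster 3. Cdkn1a was higher in cluster 1 in each of the 11 alternative fits, with log2 fold changes from 0.36 to 1.20, and Dut and Tyms in 10 of 11. For Cdkn1a the mean of the other clusters includes the low cluster 3. Among cells that were not dividing, Cdkn1a stood at 438, 573 and 406 CPM in cluster 1 of mice 1, 2 and 3. This was below cluster 4 (790, 714 and 636 CPM) and cluster 5 (465, 583 and 450 CPM) in each mouse. Cluster 2 stood at 353, 395 and 412 CPM and cluster 3 at 118, 139 and 140 CPM.

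Cdkn1a gave the largest difference between states. It stood at 123, 132 and 141 CPM in cluster 3 of mice 1, 2 and 3 (log2 fold change -2.04 ± 0.13 SE, edgeR adjusted p = 5.58e-08) and at 788, 691 and 615 CPM in cluster 4 (1.17 ± 0.10 SE, edgeR adjusted p = 1.13e-06). The 2 clusters did not overlap, and cluster 3 was below and cluster 4 above every other tested cluster in each mouse. In cluster 3 at Leiden resolution 1.0 the difference was -0.14 (edgeR adjusted p = 0.584).

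In cluster 3, 4 of 48 genes were higher (18.9% of all genes) and 4 lower (19%). Ung was higher, at 8.90, 8.50 and 13.2 CPM in mice 1, 2 and 3 (log2 fold change 1.21 ± 0.18 SE, edgeR adjusted p = 1.95e-05), and so was Plk1, at 3.56, 9.53 and 9.37 CPM (1.07 ± 0.23 SE, edgeR adjusted p = 0.00114). Both passed in all 11 alternative fits. Cdc20 (0.96 ± 0.30 SE) and Aurka (0.68 ± 0.22 SE) were the other higher genes, passing in 6 and 8 of 11. Lower were Cdt1 (-0.80 ± 0.12 SE), Mki67 (-0.52 ± 0.17 SE), Pcna (-0.27 ± 0.08 SE) and Cdkn1a. Of these, Cdt1 passed in 9 of 11 fits and Cdkn1a in 10, but Mki67 in 5, with values from -0.68 to 0.0173, and Pcna in 4. Among the replication genes Ung and Cdt1 thus moved in opposite directions in this cluster.

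In the remaining clusters few of the 48 passed, though the counts depended on the settings. In cluster 4, Cdkn1a and Cdt1 (0.41 ± 0.12 SE) were higher, 2 of 48 against 18.6% of all genes. Lower there were Mcm3 (-0.40 ± 0.14 SE), Ung (-0.66 ± 0.24 SE), Plk1 (-0.94 ± 0.32 SE) and Ccne1 (-1.08 ± 0.35 SE), 4 of 48 against 15.1%. The median of the 48 was -0.29 in cluster 4, with 5 of 48 values above 0. In cluster 4 Cdkn1a passed in all 11 alternative fits, but Ung in 4, Mcm3 in 5, Plk1 in 6, Ccne1 in 7 and Cdt1 in 8. With no filter on low counts 24 were lower there, and 37 with the correlated genes in clustering. In cluster 2 only Cdkn1b passed, higher at 69.5, 65.2 and 42.4 CPM (0.46 ± 0.12 SE), against 4.05% of genes higher and 3.59% lower. In cluster 5 only Tacc3 passed, lower at 12.7, 12.8 and 18.2 CPM (-0.59 ± 0.16 SE), against 7.3% higher and 3.86% lower. The Cdkn1b call held in 5 of 11 alternative fits and the Tacc3 call in 7. At resolution 1.0 33 were higher in the match of cluster 2, and with the highest doublet scores removed 18 were lower in that of cluster 5.

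**Figure D5:**
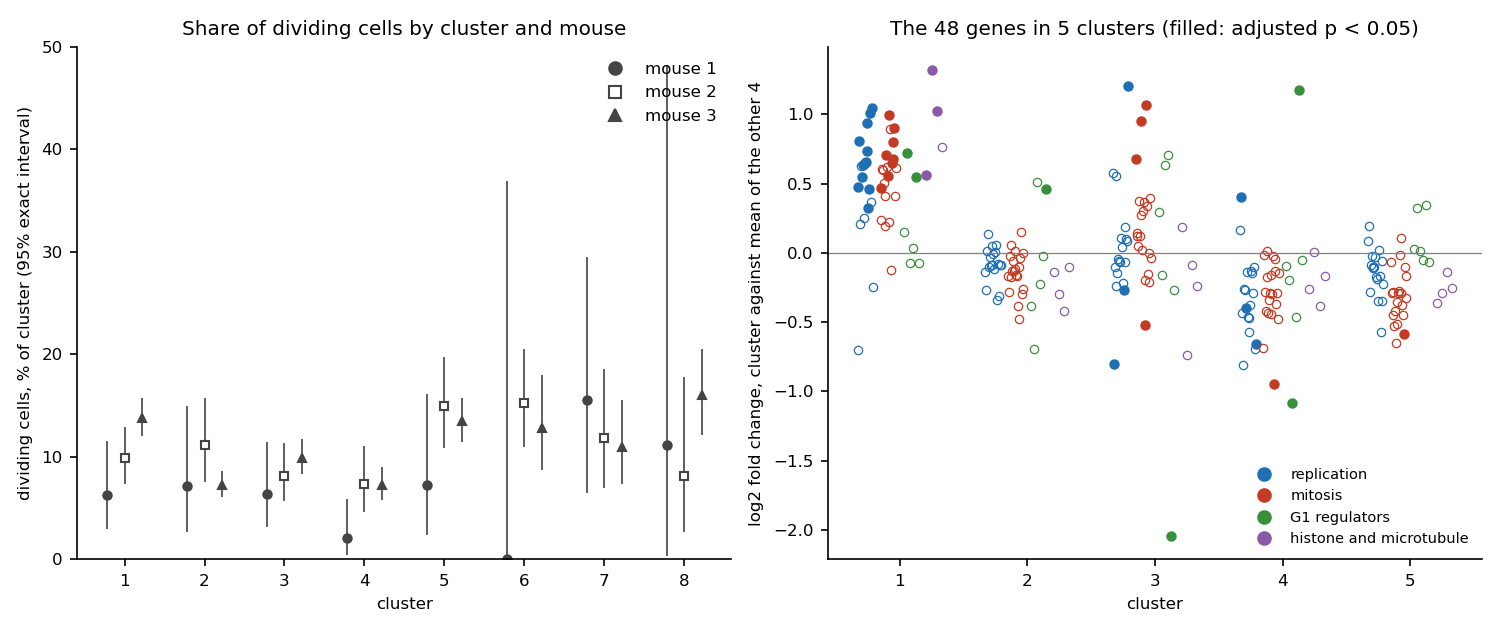
Left, dividing cells as a percentage of each cluster, with 1 symbol per mouse and exact 95% binomial intervals (cluster 7 is the low-UMI cluster). Right, log2 fold change of each of the 48 genes in clusters 1 to 5 against the mean of the other 4, filled where the edgeR adjusted p was below 0.05: 25 genes are higher in cluster 1, and Cdkn1a is the lowest point in cluster 3 and the highest in cluster 4.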

How the data were processed

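For each mouse the authors deposited 1 matrix of raw UMI counts, restricted per the file headers to barcodes called as cells. The submitters' processing notes name Cell Ranger 3.0.2 and build mm10. Which annotation they used is not given in the sources used here. No paper was used. The 48 genes and all gene lists were chosen with earlier results of these data known.

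Cells with under 500 genes or over 15% mitochondrial UMIs were removed. Scrublet in scanpy 1.11.5 called 11 doublets (0.113%), too few for a working caller, so the top scores at 0.8% per 1000 cells were removed as an alternative. Leiden clustering (resolution 0.5, 2000 variable genes, 30 components, 15 neighbours) left out 405 listed genes and 322 genes correlated at 0.15 or more with the summed members. Clusters were named from markers, which are not results.

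Sums of UMI counts for each class in each mouse were tested with edgeR 4.0.16 (TMM, filterByExpr, robust quasi-likelihood F test, mouse as block, Benjamini-Hochberg over all genes tested, threshold 0.05). The same mouse gives every class, so mice pair the sums. The SE is the log2 fold change divided by the square root of F. Genes outside the 48 were named when they were among the 8 largest changes in each direction within the lists and had 1 sign in all 3 mice, and some listed genes that passed were added after their values were seen. Ung, Plk1, Mki67, Tyms and Dut were given in full after their values were seen. Genes named by that rule at 3 or fewer UMIs in a class are not named, and others are left out.

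In simulated counts, drawn once, log2 changes of 1 were called for 89.0% of changed genes in cluster 2, the only cluster simulated. They were called for 88.0% in dividing cells and 15.0% in mitosis against replication cells. False calls made up 1.75, 15.4 and 12.3% of calls in these draws, where 5% was the nominal rate. The draws held no differences between mice and no class differences outside the changed genes, so rates in the real data may differ. The p-values of the main fits measure how far differences between classes varied over the 3 mice. Differences in level between mice are taken out by the block. Alternatives covered cell filters, doublets, thresholds, thinning, clustering, DESeq2 1.42.0, no low-count filter, no mouse block and each mouse left out.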

Additional observations from a re-analysis of the deposited data

Results flagged for a closer look

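The barcodes that the filters on detected genes and mitochondrial UMIs removed were used in none of the comparisons, and UMIs of the 48 genes were counted in them too. Of 411, 362 and 451 removed barcodes in mice 1, 2 and 3, 32, 25 and 33 lay above the replication or the mitosis threshold of the kept cells. These were 7.79% (exact 95% binomial interval 5.39 to 10.8%), 6.91% (4.52 to 10.03%) and 7.32% (5.09 to 10.1%). The share that free RNA alone would give was not measured. The removed barcodes had medians of 2925, 1662.5 and 1077 UMIs and of 29.5, 22.4 and 19.0% mitochondrial UMIs. In mouse 1 the share among removed barcodes was above that of kept cells (6.18%), and in mice 2 and 3 it was below (10.7 and 10.6%). These differences were not tested.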

How the results depend on the processing

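The dividing share was 14.6% with the threshold at 2 scaled deviations, 6.30% at 4 and 12.8% after thinning, and between 8.38 and 10.6% with each mouse left out. After thinning or with other cell filters, the thresholds were set anew on the cells and counts used. The mitosis share of dividing cells was 84.1% at 2 deviations, 100% at 4 and after thinning, 91.3% with at least 1000 genes, and 94.99 to 97.5% with each mouse left out. The gap between the median centres of mitosis and replication genes, 0.32, was 0.35 at 2 deviations, 0.27 at 4 and 0.29 after thinning, and 0.31 to 0.34 with each mouse left out. At 4 deviations no cell was high for replication only, so mitosis against replication cells was not run there. Without the replicate block for the mouse the calls fell to 583 genes in dividing cells, 81 in mitosis cells, 3 of the 48 among clusters, and 5, 0, 3, 1 and 0 of the 48 in clusters 1 to 5. With each mouse left out they ran from 1253 to 4390, from 158 to 190 and from 8 to 35, and in clusters 1 to 5 from 10 to 34, 0 to 4, 6 to 14, 4 to 8 and 0 to 17. DESeq2 called 2064 genes in dividing and 55 in mitosis cells, and 12 and 2 of the 48 in clusters 4 and 5, and its size factors gave 2 in cluster 5. With no filter on low counts 45 of the 48 differed among clusters, and 5, 21, 26 and 16 passed in clusters 2 to 5. At resolution 1.0 42 differed, with 34, 4 and 2 in clusters 2 to 4. With the correlated genes in the clustering 43 differed, with 7, 35, 33, 39 and 9 in clusters 1 to 5. With the highest doublet scores removed 147 genes passed in mitosis cells, and 13 and 20 of the 48 in clusters 1 and 5. With at least 5 cells in every mouse 2 passed in cluster 2 and 2 in cluster 5. Clusters of alternatives were matched by shared cells, in part loosely. Mitosis against replication cells gave 0 genes at equal numbers, 482 at 2 deviations and 588 with cells high for both added to the replication cells. These last settings, the 5-cell minimum and the gap at 2 deviations were chosen after seeing the data. Signs turned for Prc1 (-0.0345), Rrm1 (-0.0117) and H2afx (-0.0142) in cluster 1 with doublet scores removed, Aurkb (-0.0455) there with the correlated genes in the clustering, Mki67 in cluster 3 (0.0173) and Mcm3 (0.0943) and Ccne1 (0.13) in cluster 4 at resolution 1.0, and, with cells high for both, Ckap2l in mitosis cells (-0.0230) and Hist1h1e in mitosis cells (-0.596), and Lyz2 in mitosis cells (-0.0502) at 2 deviations. Where the construction of a setting does not show the cause, the cause was not tested. Depth limits genes under about 5 CPM, such as Cdc6 and Plk1.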
